A study of Mus musculus with 6 samples.

Results

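Cd274, Pdcd1lg2, Lgals9, Vsir, Pvr, Cd80, Cd86 and Cd40 encode molecules with which myeloid cells restrain or help T cells. They were taken by gene symbol, and all 8 were found among the 30406 genes that the 6 files share. Their levels were followed in macrophages, monocytes, dendritic cells, neutrophils and mesenchymal-like cells of Py8119 mammary tumours. Py8119 is a mouse mammary tumour cell line, injected here into female mice that lacked (KO) or carried (WT) Mtdh in the host, in the marrow, or in both.

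The 6 groups hold 1 droplet library each, made from live CD45-positive cells sorted out of the tumour. Host and marrow were both KO in intact KO mice and in irradiated KO hosts given KO marrow, called KO-KO chimeras below with the marrow named first. The 4 other groups were KO-WT chimeras, WT-KO chimeras, intact WT mice and WT-WT chimeras. Chimeras were irradiated before marrow transfer, tumour cells were injected 8 weeks after it, and tumours grew for 4 weeks. How many mice stand behind a library, their strain and their age are not given in the labels. No group has a replicate. The p-values for genotype and transplantation therefore rest on the spread between libraries that share a term, which may be technical. Those for differences between classes, compared within libraries, rest on how a class varies over the 6 libraries.

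Cd274 (PD-L1) and Pdcd1lg2 (PD-L2) bind the receptor PD-1 on T cells and lower T cell activity. Vsir (VISTA) and Lgals9 (galectin-9, a ligand of Havcr2) are counted among the inhibitory ligands, while Pvr (CD155) binds the activating receptor Cd226 and the inhibitory receptors Tigit and Cd96. Cd80 and Cd86 give costimulation through Cd28 and are taken up by Ctla4, and Cd40 is the receptor through which T cells carrying Cd40lg activate antigen-presenting cells. Interferon gamma is a known inducer of Cd274, and CD40 signals through NF-kB.

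The 30198 cells of the 7 classes were set by marker gates that used none of the 8 genes, out of 38201 cells kept. Macrophages made up 25430 of them, mesenchymal-like cells 2028, neutrophils 1478, monocytes 569, mature dendritic cells (DC) 293, conventional type 2 DC (cDC2) 217 and type 1 DC (cDC1) 183. Both cDC classes fell under 20 cells in a library and were also summed as cDC. Library totals ran between 85616443 and 142779550 UMIs (unique molecular identifiers, 1 per counted RNA molecule). In macrophages Mtdh, the deleted gene, stood at 12.5 to 18.9 CPM in the 3 libraries with KO marrow and at 109 to 111 CPM in the 3 with WT marrow, where CPM scales the UMIs of a class in a library to a total of 1000000. In mesenchymal-like cells, gated on Sparc, Krt8, collagens and Cald1, Mtdh stood at 374 to 467 CPM in all 6 libraries and followed neither label. Whether this class, which holds keratin-positive cells, includes injected Py8119 cells was not tested.

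Cd274 and Pdcd1lg2 are neighbours on the plus strand of mouse chromosome 19 (mm10, GENCODE annotation): Cd274 runs between bases 29367455 and 29388095, Pdcd1lg2 between 29410919 and 29471161, and the 22823 bases between them hold no annotated gene. Lgals9 lies on chromosome 11 (78962974 to 78984946, minus strand), Cd80 (38455561 to 38496335, plus) and Cd86 (36603869 to 36666081, minus) on chromosome 16, Pvr on chromosome 7 (19903578 to 19921160, minus) and Cd40 on chromosome 2 (165055627 to 165072948, plus). Vsir (chromosome 10, 60346851 to 60372684, plus) lies inside Cdh23 on the opposite strand, and Cd274, Pdcd1lg2 and Pvr overlap antisense genes. No source used here says whether counting used strand, so reads of these overlapping partners may be included.

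RefSeq start-site windows (GRCm38.p6, 250 bases before to 50 bases after the start) were held for 5 of the 8 genes and are shown for the PD-1 ligand pair, because both genes moved together in macrophages, and for Lgals9, which holds the motif matches. Capitals mark matches, on either strand, to the core of the interferon-stimulated response element, written as GAAA, any 2 bases and GAAA. TTCNNNGAA, the gamma-activated site, and an NF-kB site, written as GGG, any 2 bases and TTTCC, were searched on both strands too. The Cd274 window is chr19:29367188-29367487 and the Pdcd1lg2 window chr19:29410669-29410968, both on the plus strand, and the Lgals9 window is chr11:78984875-78985174 on the minus strand.
Cd274: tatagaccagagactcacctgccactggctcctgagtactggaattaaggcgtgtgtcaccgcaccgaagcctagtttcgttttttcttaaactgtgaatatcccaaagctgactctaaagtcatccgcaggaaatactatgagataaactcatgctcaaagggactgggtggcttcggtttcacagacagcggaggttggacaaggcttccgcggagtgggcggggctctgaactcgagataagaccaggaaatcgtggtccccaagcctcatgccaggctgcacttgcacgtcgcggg
Pdcd1lg2: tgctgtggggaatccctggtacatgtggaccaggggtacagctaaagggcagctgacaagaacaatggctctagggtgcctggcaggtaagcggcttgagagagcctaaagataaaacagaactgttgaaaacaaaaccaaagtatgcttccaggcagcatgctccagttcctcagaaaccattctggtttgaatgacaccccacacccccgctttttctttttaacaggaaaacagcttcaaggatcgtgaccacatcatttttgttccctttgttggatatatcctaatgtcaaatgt
Lgals9: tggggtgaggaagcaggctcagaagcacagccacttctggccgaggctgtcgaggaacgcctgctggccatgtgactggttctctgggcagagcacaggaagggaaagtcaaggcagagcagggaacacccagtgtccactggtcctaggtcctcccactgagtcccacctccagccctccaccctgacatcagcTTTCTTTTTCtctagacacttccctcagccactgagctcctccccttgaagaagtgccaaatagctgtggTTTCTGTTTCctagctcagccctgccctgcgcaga
Lgals9 held the response element core at 2 places in reverse orientation, starting 55 bases before the start site and at base 16 after it, without overlap with another motif. The windows of Cd274, Pdcd1lg2, Cd80 and Vsir held none of the 3 motifs. Of 32851 windows of this length, 3.44% held that core, 8.30% held TTCNNNGAA and 1.63% held the NF-kB site. A match describes the letters of these windows and says nothing of binding.

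The first comparison set the 6 classes against each other within libraries. By the median over 6 libraries, mature DC and neutrophils held the highest Cd274, Pdcd1lg2 and Cd80, mature DC the highest Cd86 and Cd40, and macrophages, monocytes and neutrophils the highest Vsir and Lgals9. For Pdcd1lg2 the place of neutrophils did not hold in the 2 libraries with both KO, where cDC had 105 and 43.3 CPM and neutrophils 28.2 and 19.7 CPM, and neutrophils over cDC did not pass (adjusted p = 0.109, edgeR). Of the 120 member tests over 15 pairs of classes, 103 passed an adjusted p under 0.05 (edgeR quasi-likelihood, Benjamini-Hochberg over all genes of a pair, library as a block). Classes differ widely throughout their RNA: between 33.1% and 78.5% of all 10307 genes tested were called in a pair of classes. Among the pairs without macrophages this share was 42.9% for cDC over monocytes, 46.8% for mature DC over monocytes, 47.9% for neutrophils over monocytes, 70.9% for mesenchymal-like cells over monocytes and 41.9% for mature DC over cDC. It was 65.8% for neutrophils over cDC, 57.2% for neutrophils over mature DC, and 69.2%, 67.7% and 78.5% for mesenchymal-like cells over cDC, mature DC and neutrophils.

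**Figure D1:**
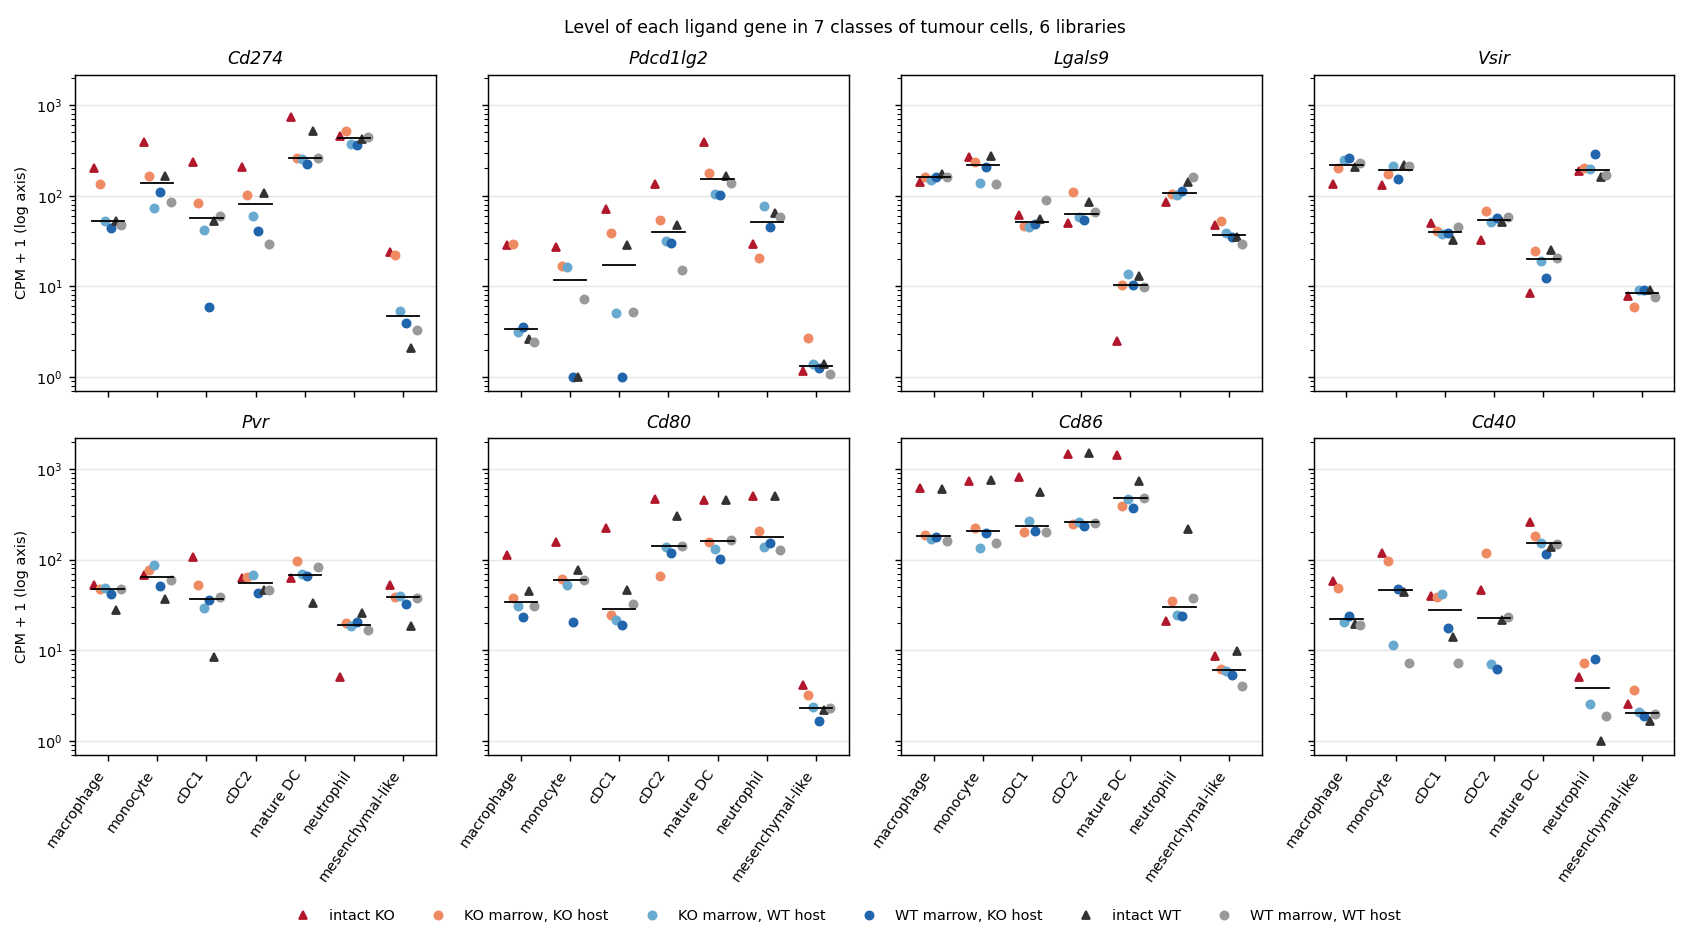
Level of each gene in 7 classes as CPM + 1 on a log axis, with 1 point per library (triangles intact mice, circles transplanted mice) and a line at the median of 6. By the median line, mature DC and neutrophils stand highest for Cd274, Pdcd1lg2 and Cd80, with Pdcd1lg2 points of neutrophils overlapping those of cDC1 and cDC2; mesenchymal-like cells lie lowest for 6 of the 8 genes, and Lgals9 is lowest in mature DC.

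Mature DC, the Ccr7-positive state in which DC carry antigen to lymph nodes, held 225 to 730 CPM of Cd274 with a median of 262, against 42.5 to 202 with a median of 52.2 in macrophages. The 2 ranges did not overlap, and the log2 fold change over macrophages was 2.41 (SE 0.37, adjusted p = 3.27e-06, edgeR; 55.4% of genes called). Pdcd1lg2 reached 101 to 393 CPM in mature DC and 1.43 to 28.3 in macrophages, a log2 fold change of 4.83 (SE 0.55). Among the costimulatory genes, mature DC exceeded macrophages by 2.54 for Cd80, 1.34 for Cd86 and 2.70 for Cd40 on the log2 scale, and Pvr exceeded by 0.81. The 2 remaining ligands went the other way: Lgals9 had 1.5 to 12.8 CPM in mature DC and 142 to 171 in macrophages (log2 fold change -4.09, SE 0.29), and Vsir 7.51 to 24.1 against 134 to 262 (-3.49, SE 0.19). All 8 genes were called for this pair.

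Neutrophils held 363 to 512 CPM of Cd274, above every macrophage library, and the fitted log2 value over macrophages was 3.02 (SE 0.37, adjusted p = 7.01e-08, edgeR; 66.7% of genes called). Pdcd1lg2 stood at 19.7 to 76.9 CPM in neutrophils and at 1.43 to 28.3 CPM in macrophages (log2 fold change 3.54). The 2 classes were close with both KO, at 28.2 CPM in neutrophils and 27.8 in macrophages of intact KO, and neutrophils lay lower in KO-KO chimeras, at 19.7 against 28.3 CPM. Cd80 stood at 127 to 507 CPM in neutrophils (2.89). Cd86, Cd40 and Pvr were lower in neutrophils than in macrophages: the log2 fold changes were -2.12, -2.69 and -0.95. For Lgals9 (-0.02, SE 0.18) and Vsir (0.29, SE 0.14) the difference did not pass. These fold changes carry TMM scaling, which raised neutrophil over macrophage values by 0.34 and mature DC values by 0.16 relative to CPM and lowered mesenchymal-like values by 0.28. Before that scaling the median Lgals9 level was 107 CPM in neutrophils and 160 CPM in macrophages. Between neutrophils and mature DC neither Cd274 (0.61 higher in neutrophils, adjusted p = 0.165, edgeR), Cd80 (0.35, 0.143) nor Pdcd1lg2 (-1.29, 0.0738) passed.

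Monocytes exceeded macrophages in 5 genes, at a background of 33.1%: Cd274 by 1.0 (SE 0.38), Cd40 by 0.91, Cd80 by 0.76, Pvr by 0.56 and Lgals9 by 0.49 on the log2 scale. For Cd40 the libraries were split: monocytes had 10.3 CPM in KO-WT and 6.19 in WT-WT chimeras, against 19.6 and 17.8 CPM in macrophages there, and lay above macrophages in the 4 others. The Cd86, Vsir and Pdcd1lg2 differences of 0.22, -0.15 and 0.50 did not pass. The Lgals9 result depended on the gate: with classes taken from clusters the monocyte over macrophage value was -0.0024, and Cd274 in monocytes spread between 71.9 and 389 CPM. Over macrophages, cDC had higher Pdcd1lg2 (log2 fold change 2.32), Cd80 (1.53) and Cd86 (0.65) and lower Vsir (-2.15) and Lgals9 (-1.31), at a background of 47%. Cd274, Cd40 and Pvr did not differ past the threshold between cDC and macrophages.

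Within DC, cDC2, which present antigen mainly to CD4 T cells, held more Cd80 than cDC1, which cross-present to CD8 T cells. Cd80 stood at 18.0 to 220 CPM in cDC1 and at 65.2 to 464 CPM in cDC2, and cDC1 over cDC2 gave a log2 value of -1.93 (SE 0.26, adjusted p = 2.78e-05, edgeR; 31% of genes called). Pdcd1lg2 was lower in cDC1 too, by -1.05 (SE 0.35, adjusted p = 0.0330), a call that held in 6 of 11 alternatives. It was lost without intact KO (adjusted p = 0.088), without intact WT (0.0691) and without KO-WT chimeras (0.0816). The 6 other genes did not pass between the 2 subsets. Mature DC exceeded cDC1 in Cd274, Pdcd1lg2, Cd80, Cd86, Pvr and Cd40, and exceeded cDC2 in Cd274 by 2.29, Pdcd1lg2 by 2.03 and Cd40 by 2.47, with 52.4% and 50.2% of genes called; Lgals9 and Vsir were lower in mature DC than in either subset. The Pvr call over cDC1 (0.76) held in 6 of 11 alternatives.

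Mesenchymal-like cells were lower than macrophages in all 8 genes (76.1% of genes called), by between -0.57 for Pvr and -5.88 for Cd86 on the log2 scale. Pvr was the exception in size: it stood at 17.5 to 52.1 CPM in mesenchymal-like cells, against 26.5 to 51.0 in macrophages, and its difference from neutrophils (0.37 higher) did not pass. UMIs of macrophage genes were found in every other class, and whether they came from free RNA, doublets or the gates was not tested. The macrophage genes C1qa, C1qb and C1qc stood at a median of 2.66% of the macrophage level in mesenchymal-like cells, 3.62% in mature DC, 6.38% in neutrophils and 9.07% in monocytes. That share of the macrophage level gives 4.09 to 18.7 CPM of Cd86 in mesenchymal-like cells, against 3.03 to 8.68 measured, or 0.464 to 1.21 times that amount.

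Macrophages were 53.6% to 79.5% of cells and held most UMIs of 7 of the 8 genes. Their median share over libraries ran from 74.9% for Cd274 to 91.2% for Vsir. Pdcd1lg2 differed: macrophages held a median of 41.0% of its UMIs, with 63.6% in intact KO and 20.8% in WT-WT chimeras, and T cells held a median of 12.4%. Mature DC, at 0.372% to 1.15% of cells, held 4.00% to 14.3% of Pdcd1lg2 UMIs.

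**Figure D2:**
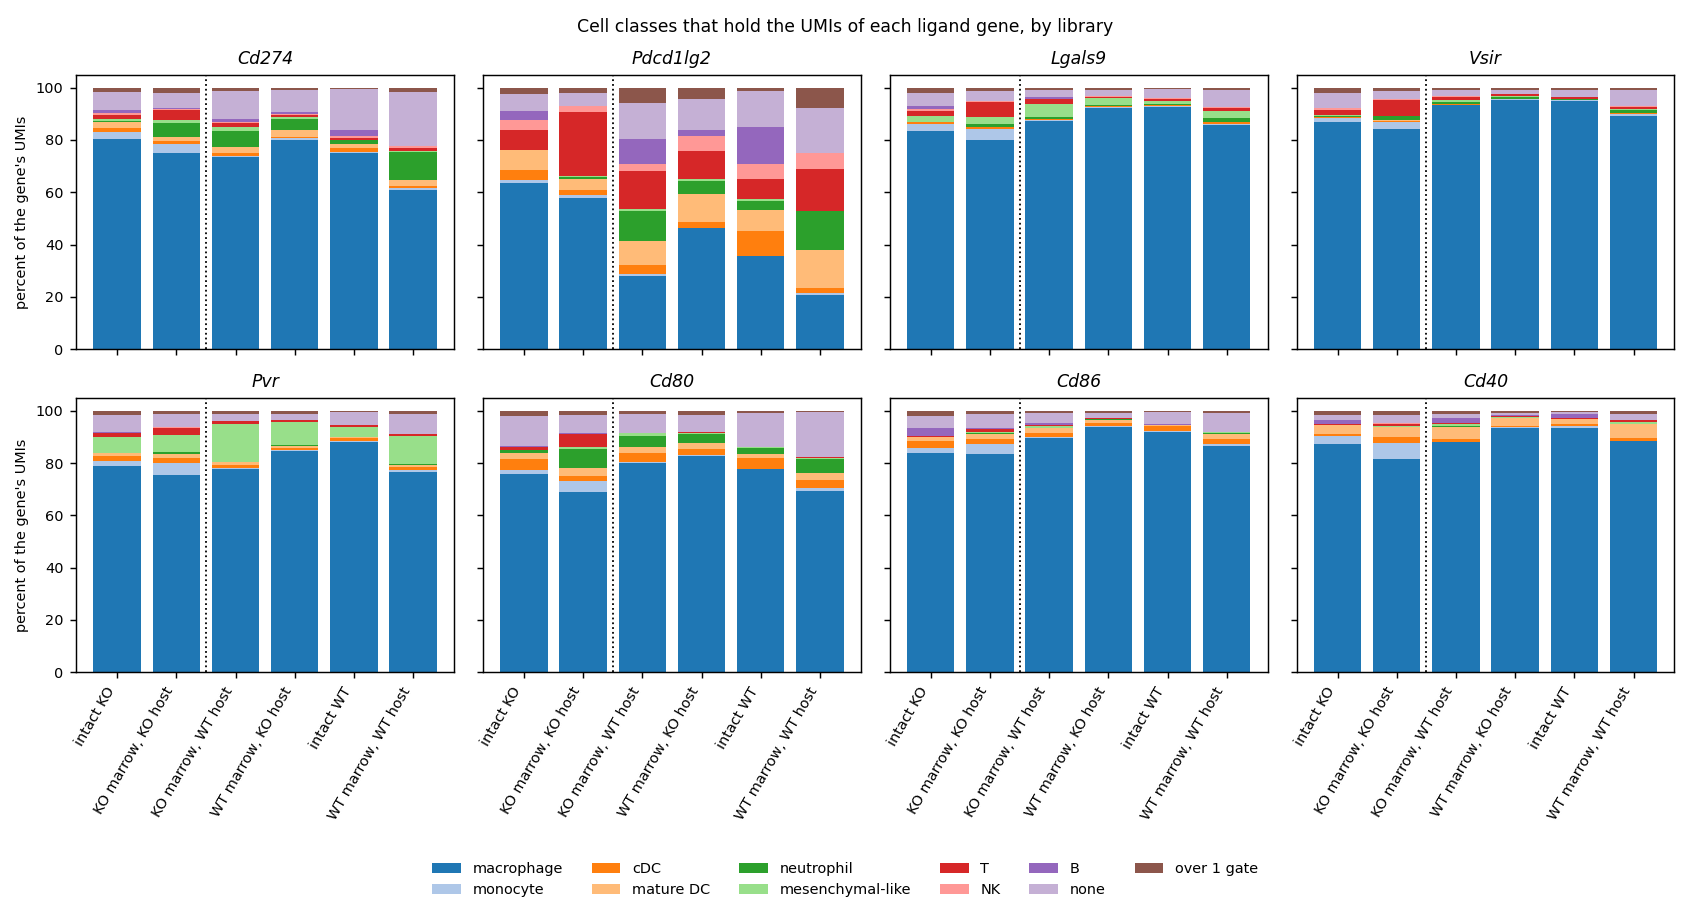
Percent of each gene's UMIs in every class, stacked to 100 per library, with the intact KO and KO-KO libraries left of the dotted line. Macrophages hold most UMIs of each gene except Pdcd1lg2 outside the 2 libraries with host and marrow KO.

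The second comparison asked how the genes differ with Mtdh in host and marrow. In macrophages Cd274, Pdcd1lg2 and Cd40 were higher in the 2 libraries with both KO than in each of the 4 other libraries. Cd274 also rose in mesenchymal-like cells, and Pdcd1lg2 and Cd40 in cDC. Lgals9, Vsir, Pvr, Cd80 and Cd86 passed in no class. The separate terms for host and for marrow gave no call for any of the 8 genes, in a model that does not match a rise only where both are KO.

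Macrophage Cd274 had 202 CPM in intact KO and 135 in KO-KO chimeras, against 52.2 in KO-WT chimeras, 42.5 in WT-KO chimeras, 52.2 in intact WT and 46.4 in WT-WT chimeras. Both KO libraries lay above the others, and the 4 others lay close together. Intact KO over intact WT gave a ratio of 3.87, and KO over WT host gave 2.59 with KO marrow and 0.916 with WT marrow; the 95% intervals cover counting error only and are 3.75 to 3.98, 2.48 to 2.70 and 0.873 to 0.962.

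Macrophage Pdcd1lg2 had 27.8 CPM in intact KO and 28.3 in KO-KO chimeras, against 2.17 in KO-WT chimeras, 2.56 in WT-KO chimeras, 1.65 in intact WT and 1.43 in WT-WT chimeras. Of the 8 genes in macrophages it had the largest fitted fold change. The intact ratio was 16.8, and KO over WT host gave 13.04 with KO marrow and 1.79 with WT marrow.

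Macrophage Cd40 followed the same split, with 57.7 CPM in intact KO and 47.1 in KO-KO chimeras, against 19.6 in KO-WT chimeras, 22.7 in WT-KO chimeras, 18.3 in intact WT and 17.8 in WT-WT chimeras. The intact ratio was 3.16, and KO over WT host gave 2.41 with KO marrow and 1.28 with WT marrow.

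**Figure D3:**
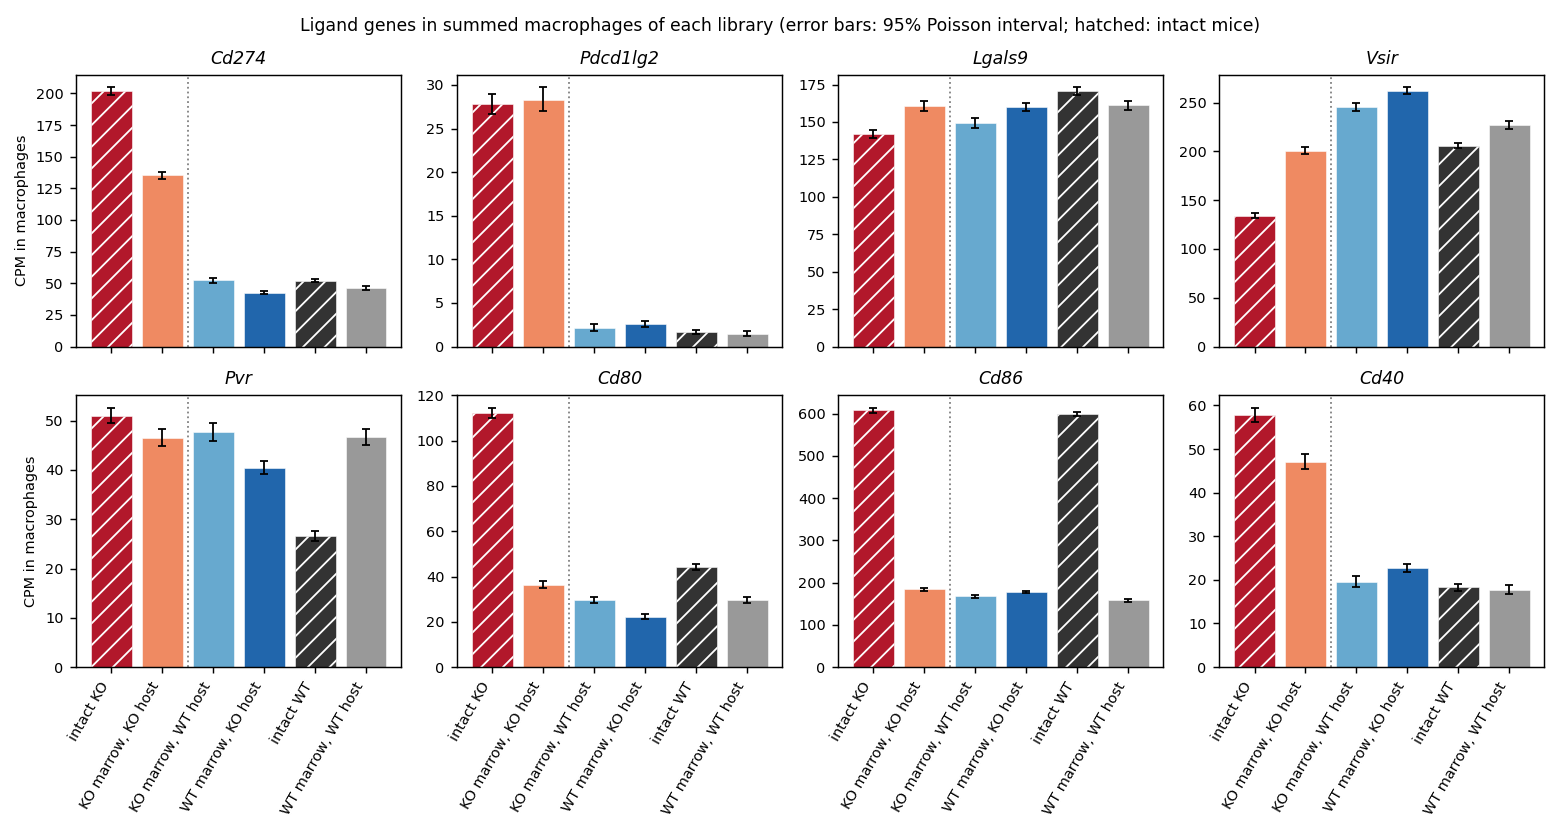
CPM of each gene in the summed macrophages of each library, with 95% Poisson intervals of counting error and the 2 libraries with host and marrow KO left of the dotted line. Cd274, Pdcd1lg2 and Cd40 stand higher in those 2 libraries, while Cd86 follows the hatched intact mice.

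In a model with 1 term for host and marrow both KO beside transplantation, the log2 fold changes in macrophages were 1.80 for Cd274 (SE 0.14, adjusted p = 0.00258), 3.99 for Pdcd1lg2 (SE 0.22, adjusted p = 0.00136) and 1.51 for Cd40 (SE 0.14, adjusted p = 0.00372; edgeR). These are 3 of 8 genes called, while 16.7% of the 14906 genes tested in macrophages were called. The members' median was 0.72 and that of all genes -0.01. Cd80 (0.91, adjusted p = 0.0586) and Vsir (-0.32, adjusted p = 0.0759) missed the threshold, Pvr (0.52), Cd86 (0.19) and Lgals9 (0.02, SE 0.08) as well. The 3 calls held under all 13 alternatives run, with Cd274 between 1.59 and 2.03, Pdcd1lg2 between 3.84 and 4.15 and Cd40 between 1.30 and 1.74. The term was chosen with earlier results of these data known, which the p-values leave out of account.

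The share of macrophages with a UMI showed the same split. After each cell was thinned to 5000 UMIs, leaving out 88 to 447 shallower cells per library, Cd274 was found in 51.7% of macrophages in intact KO and 42.5% in KO-KO chimeras, against 17.03% to 18.4% in the 4 other libraries; the unthinned shares were 83.2% and 65.8% against 35.8% to 40.3%. Pdcd1lg2 was found in 9.94% and 10.6%, against 0.562% to 1.20% (unthinned 24.6% and 21.5% against 1.93% to 3.45%). In mesenchymal-like cells, taken as a class without Pdcd1lg2, its thinned share was 0% to 0.847% at median depths of 22523 to 30583 UMIs, against 14079 to 19804 in macrophages. Cd40 was found in 22.1% and 19.8% of macrophages, against 8.44% to 10.5%, and in 0% to 1.82% of NK cells.

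Cxcl9, a chemokine induced by interferon gamma, was found in 2178 of 3932 thinned macrophages of intact KO and in 2487 of 3656 of KO-KO chimeras. The genes were also higher in macrophages without a Cxcl9 UMI. In macrophages without a Cxcl9 UMI, Cd274 stood at 161 and 113 CPM in the both-KO libraries and at 40.2 to 49.7 in the others. Pdcd1lg2 stood at 25.8 and 20.4 against 1.16 to 2.77, and Cd40 at 30.8 and 29.1 against 17.1 to 20.8. Macrophages with Cxcl9 had more Cd40 than those without in all 6 libraries, for example 89.3 against 30.8 CPM in intact KO.

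Markers of other cells moved with this result. In macrophages the 7 T cell markers summed to 24.7 to 41.0 CPM with both KO and 5.04 to 13.4 CPM otherwise, the 6 NK markers to 13.9 to 17.2 against 0.980 to 2.14, the 7 mature DC markers to 50.4 to 69.3 against 32.5 to 46.8, the 7 monocyte markers to 426 to 457 against 321 to 383, the 7 cDC1 markers to 319 to 367 against 127 to 208, and the 7 cDC2 markers to 344 to 362 against 105 to 152; no marker of these lists was at 0. The 7 macrophage markers summed to 30144 to 39319 CPM with both KO and 48035 to 59497 otherwise. What other classes could bring was taken from the share of a few markers per class found in macrophages, not from the whole lists above. These were Xcr1 and Clec9a for cDC1, Cd209a and Flt3 for cDC2, Ly6c2 and Plac8 for monocytes, and likewise few for the others. By these few markers, 9 other classes together would bring 6.46 of the 202 CPM of Cd274 in intact KO and 4.96 of 135 CPM in KO-KO chimeras. The same sum gives 2.31 of 27.8 and 1.49 of 28.3 CPM of Pdcd1lg2, and 1.49 of 57.7 and 2.33 of 47.1 CPM of Cd40. In their own classes with both KO, the whole lists summed to 2927 to 3349 CPM for cDC1, 2441 to 2638 for cDC2 and 5541 to 6244 for monocytes. The amounts depend on the markers chosen, and those by the whole lists were not computed. The part of the lower macrophage markers in the result was not tested.

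Mesenchymal-like cells held 23.0 CPM of Cd274 in intact KO and 21.4 in KO-KO chimeras, against 4.40 in KO-WT chimeras, 2.94 in WT-KO chimeras, 1.07 in intact WT and 2.34 in WT-WT chimeras. The groups did not overlap, and the log2 fold change was 3.18 (SE 0.37, adjusted p = 0.00671, edgeR), the only call among 7 of 8 genes tested there at a background of 3.01%. It held under all 13 alternatives, between 2.71 and 4.47. Amounts from other classes were again taken from a few markers per class, with C1qa, C1qb and C1qc for macrophages. If those markers came only from other cells, all other classes together would bring 18.8 of the 23.0 CPM in intact KO. In KO-KO chimeras they would bring 8.65 of the 21.4 CPM. In the 4 other libraries the sum is 4.27 to 12.7 CPM, more than the level measured in each, so it overstates the amount there. Mature DC make up 4.27 to 12.5 CPM of this sum with both KO, and macrophages 3.12 to 5.50. In mesenchymal-like cells the 7 T cell markers summed to 11.01 to 27.8 CPM with both KO and 2.67 to 9.75 otherwise, the 6 NK markers to 1.42 to 6.404 against 0.267 to 1.30, the 7 cDC2 markers to 18.3 to 33.4 against 9.86 to 16.8 and the 7 monocyte markers to 143 to 161 against 87.7 to 122. Macrophage markers ran lower, at 935 to 1071 against 1448 to 2006 CPM. Mature DC markers overlapped, at 133 to 173 and 152 to 177 CPM, and stood above their 50.4 to 69.3 and 32.5 to 46.8 CPM in macrophages. Whether mesenchymal-like cells make these markers themselves was not tested. The part of these other cells in the Cd274 result was not tested. Lgals9 in these cells (0.60, adjusted p = 0.0582) missed the threshold.

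In cDC, Cd40 had 42.1 CPM in intact KO and 68.0 in KO-KO chimeras, against 12.1 to 17.6 in the 4 others; the fitted log2 difference was 1.80 (SE 0.27, adjusted p = 0.00706, edgeR). Pdcd1lg2 stood at 105 and 43.3 CPM, against 9.29 to 38.7 (1.5, SE 0.28, adjusted p = 0.0239). These are 2 of 8 genes at a background of 0.918%. Without KO-KO chimeras the Cd40 call was lost (log2 fold change 1.29, adjusted p = 0.294). The Pdcd1lg2 call held in 7 of 13 alternatives and was lost with the transplanted libraries alone or when any library except KO-WT chimeras was left out, at adjusted p up to 0.13. Cd274 in cDC (1.26, adjusted p = 0.0935) missed the threshold. Other classes, at the share of the same few markers per class found in cDC, would bring 21.9 of 42.1 CPM of Cd40 in intact KO. In KO-KO chimeras they would bring 16.3 of 68.0 CPM. This would leave 20.3 and 51.7 CPM against 7.84 to 13.8 in the 4 others. For Pdcd1lg2 the amounts left were 85.9 CPM in intact KO and 36.04 in KO-KO chimeras, against 4.75 to 36.02, so that KO-KO chimeras and intact WT were level. In cDC the 6 NK markers summed to 120 to 180 CPM with both KO and 27.9 to 77.3 otherwise, the 7 monocyte markers to 438 to 748 against 203 to 362 and the 7 cDC1 markers to 1865 to 2005 against 1025 to 1814; the macrophage markers ran lower, at 1502 to 1631 against 2097 to 2438 CPM. Their part in these results was not tested.

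**Figure D4:**
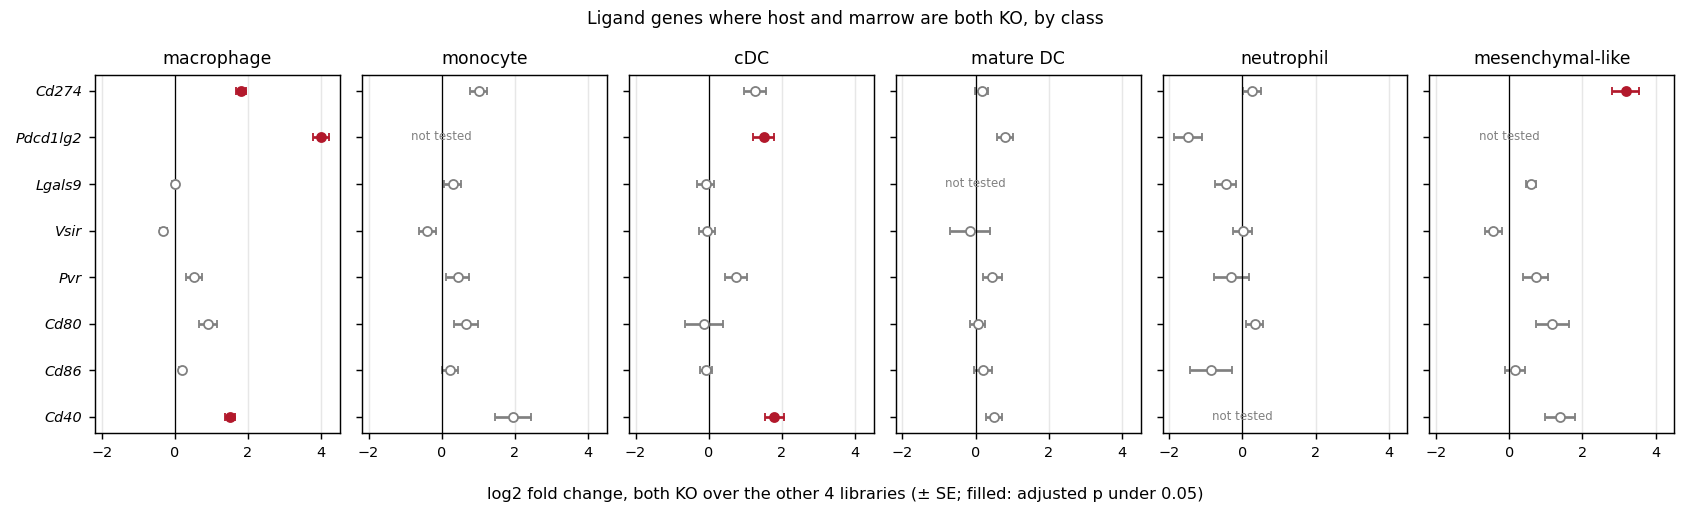
Fitted log2 fold change of host and marrow both KO over the 4 other libraries, with its SE, for each gene (rows) and class (panels); filled points passed an adjusted p under 0.05. Macrophages carry 3 of the 6 calls, and Pdcd1lg2 in neutrophils lies at -1.5, below 0, without passing.

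Monocytes, mature DC and neutrophils had no call with both KO, at backgrounds of 0.239%, 0.146% and 0.852%. Over all 6 classes DESeq2 called 15 members where edgeR called 6, and the share over all genes was not kept for DESeq2. Of the 44 edgeR tests over the 6 classes, 19 passed an unadjusted p of 0.05. Over all genes 5035 of 14906 did so in macrophages, 2274 of 12398 in mesenchymal-like cells and 947 of 8166 in cDC. In neutrophils 758 of 5515 genes did so, in mature DC 533 of 5486 and in monocytes 418 of 5013. Monocyte Cd274 was 389 and 165 CPM with both KO, against 71.9 to 165 (log2 fold change 1.01, adjusted p = 0.0843, edgeR), with intact WT level with KO-KO chimeras. Mature DC Cd274 was 730 and 260 CPM against 225 to 519, which overlap (0.16, SE 0.19). Neutrophil Cd274 was 455 and 512 CPM against 363 to 443 (0.26, SE 0.24). Neutrophil Pdcd1lg2 ran the other way, at 28.2 and 19.7 CPM from 7 and 22 UMIs, against 43.8 to 76.9 from 18 to 66 UMIs, and did not pass (-1.5, SE 0.38, adjusted p = 0.0963).

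The difference of the both-KO effect between a class and macrophages was tested within libraries, an addition made after seeing the data. For Pdcd1lg2 the effect in cDC was lower by -2.52 (SE 0.32, adjusted p = 3.41e-13; 4.69% of genes called for cDC), in mature DC by -3.15 (SE 0.28; 1.69%) and in neutrophils by -5.37 (SE 0.44; 1.71%; edgeR). Each of these fits left only 3 residual degrees of freedom. The error behind the Pdcd1lg2 p-values was pooled over genes, so they do not measure the spread of Pdcd1lg2 itself between libraries. For Cd274 it was lower in mature DC (-1.59, SE 0.22) and neutrophils (-1.37, SE 0.28) and higher in mesenchymal-like cells (1.44, SE 0.26, adjusted p = 0.0123; 6.71%). Cd40 differed in mature DC (-0.92, adjusted p = 0.0361), Cd80 in cDC (-1.08) and Lgals9 in mesenchymal-like cells (0.64, adjusted p = 0.0230). The Cd80 difference was lost without KO-KO chimeras (-0.56, adjusted p = 0.614), the Cd40 one held in 5 of 13 alternatives and the Lgals9 one in 9 of 13. For monocytes no gene differed past the threshold (0.828%): the Cd274 difference was -0.68 (SE 0.25).

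With host and marrow as separate additive terms, none of the 44 class and gene tests was called for host and none for marrow (edgeR). Additive terms cannot follow a level raised only where both are KO, and the misfit enters their error. For macrophage Pdcd1lg2 the SE was 0.69 for host and 0.70 for marrow, against 0.22 for the both-KO term. The lack of calls therefore does not show that host or marrow has no effect. Over all genes, host called 1.02% in monocytes, 0.0968% in mesenchymal-like cells, 0.0182% in mature DC, 0.0181% in neutrophils and 0% in macrophages and cDC; marrow called 0.0403% in mesenchymal-like cells, 0.0182% in mature DC, 0.0181% in neutrophils, 0.0122% in cDC and 0% in macrophages and monocytes. At an unadjusted p under 0.05 there were 7 for host and 9 for marrow. Over all genes 663 of 14906 for host and 696 for marrow passed in macrophages, and 456 and 270 of 5013 in monocytes. In cDC 568 and 411 of 8166 genes passed, and in mesenchymal-like cells 627 and 499 of 12398. Neutrophils had 386 and 231 of 5515, and mature DC 278 and 248 of 5486. DESeq2 called 2 members for host and 1 for marrow, with no share over all genes kept. Nearest to the threshold was Cd40 in monocytes with host genotype. Its level was 118 CPM in intact KO, 94.4 in KO-KO chimeras and 46.5 in WT-KO chimeras, against 43.3 in intact WT, 10.3 in KO-WT chimeras and 6.19 in WT-WT chimeras. KO hosts lay above WT hosts, with the levels of intact WT and WT-KO chimeras nearly touching (log2 fold change 2.12, SE 0.54, adjusted p = 0.0797, edgeR). This passed without intact KO (3.05, adjusted p = 4.01e-05), without intact WT (3.07, adjusted p = 3.42e-05) and without WT-WT chimeras (1.7, adjusted p = 0.0370). WT host libraries held 24 to 52 monocytes each, and WT-KO chimeras, with a KO host, held 22. All monocyte UMIs came to 194832 in KO-WT and 484387 in WT-WT chimeras, so the Cd40 levels there rest on a few UMIs. The calls with a library left out carry the same limit. Without KO-WT chimeras, the only libraries with KO marrow are the 2 with both KO. The marrow term is then the both-KO term beside a host term, and cannot speak for marrow alone. It gave 4 calls, Cd274 in macrophages (1.86), cDC (2.25) and mesenchymal-like cells (3.05) and Pdcd1lg2 in macrophages (3.50).

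Genes of the same pathways were followed with lists chosen with earlier results known. Of the interferon gamma response genes, 9 of 9 tested of 10 rose in both-KO macrophages, with a median log2 fold change of 2.61 against -0.01 for all genes: Irf1 by 2.60, Socs1 by 3.17, Gbp2 by 3.24, Gbp5 by 2.70 and Cxcl10 by 2.56. Over all genes in macrophages 9.14% were called higher and 7.54% lower. The same list had 6 of 9 called in cDC, 6 of 8 in neutrophils, 6 of 9 in mesenchymal-like cells, 2 of 9 in mature DC and 1 of 9 in monocytes, all higher, where 0.527%, 0.707%, 2.02%, 0.109% and 0.18% of all genes were called higher. Neutrophils had Cxcl9 (4.49), Irf1 (2.64) and Socs1 (2.12) called while none of the 7 ligand genes tested there was.

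With those shares as the background, of 9 NF-kB and CD40 response genes 3 rose in macrophages (Icam1 by 1.14, Traf1 by 1.60 and Nfkb1 by 1.27) and 2 in neutrophils (Icam1 by 1.76 and Nfkb1 by 1.20). Of 14 other ligands tested of 16 in macrophages, 4 rose (Tnfsf15 by 3.17, Tnfrsf14 by 0.78, Tnfsf14 by 0.97 and Nectin2, a further ligand of Cd226, by 0.49) and 2 fell (Cd276 by 0.96 and Tnfsf8 by 0.78 on the log2 scale), with a median of -0.21. In the 5 other classes none of that list was called with both KO. With host genotype in monocytes, Cd83 rose by 0.99 and Gbp5 by 2.17. Of 6 receptor genes of the members tested in macrophages 4 rose, namely Cd226 by 3.50, Pdcd1 by 2.90, Cd96 by 2.67 and Ctla4 by 1.79; these are T and NK cell genes, and the T and NK markers given above moved with them.

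The third pattern set the 4 transplanted libraries against the 2 intact ones. Cd86 was lower in transplanted mice in every antigen-presenting class: 158 to 184 CPM against 608 and 600.2 in macrophages, 133 to 221 against 727 and 752 in monocytes, 214 to 262 against 1157 and 1102 in cDC and 374 to 480 against 1444 and 744 in mature DC. The transplanted and intact values did not overlap in these 4 classes. The fitted log2 fold changes, beside host and marrow terms, were -1.66 (SE 0.10, adjusted p = 0.000616), -2.02, -2.15 and -1.19 (edgeR, with 25.9%, 15%, 15.2% and 15.1% of genes called). Over all genes most calls were lower too. In macrophages 19.8% of genes were called lower and 6.03% higher, in monocytes 13.8% and 1.28%, in cDC 13.6% and 1.63%, and in mature DC 12.9% and 2.19%. Of the genes tested in macrophages, 11.6% had a lower fold change than Cd86. In neutrophils Cd86 did not follow this split: 22.8 to 36.3 CPM in transplanted mice, against 20.1 in intact KO and 219 in intact WT.

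Cd80 was lower in transplanted mice in macrophages, monocytes, cDC, mature DC and neutrophils, with log2 fold changes between -1.84 in cDC and -1.13 in macrophages. In neutrophils it stood at 127 to 205 CPM in transplanted mice, against 507 in intact KO and 505 in intact WT. Over all genes in neutrophils 11.3% were called, 8.69% lower and 2.61% higher. In macrophages it stood at 22.2 to 36.2 CPM, against 112 in intact KO and 44.2 in intact WT, so intact KO stood apart. Cd274 was lower in monocytes (-1.22), cDC (-1.41) and mature DC (-1.18), and Pdcd1lg2 in cDC (-1.61) and mature DC (-0.91). Vsir alone was higher, in macrophages, at 201 to 262 CPM against 134 in intact KO and 206 in intact WT, which overlap (log2 fold change 0.65, SE 0.15, adjusted p = 0.0320). Cd40, Pvr and Lgals9 were called in no class, and none of the 7 genes tested in mesenchymal-like cells was (25.1%). Transplantation, irradiation and the Cell Ranger version (6.1.1 for transplanted, 7.0.1 for intact libraries) cannot be told apart. Over 12 alternatives Cd86 in macrophages, monocytes and cDC and Cd80 in mature DC were called in all. Without intact KO, Cd86 in mature DC fell short (-0.49, adjusted p = 0.429), as did Cd80 in macrophages (-0.56, adjusted p = 0.291), Cd80 in monocytes (-0.60, adjusted p = 0.583) and Vsir in macrophages (0.46, adjusted p = 0.256). Without it the calls of Cd274 in monocytes (adjusted p = 0.0913), cDC (0.258) and mature DC (0.155), of Cd80 in cDC (0.270) and of Pdcd1lg2 in cDC (0.0535) and mature DC (0.626) were lost as well. Cd80 in macrophages and monocytes and Vsir in macrophages each held in 7 of the 12, Cd80 in cDC in 8, and Pdcd1lg2 in mature DC in 5, so libraries other than intact KO decided some of these calls too.

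**Figure D5:**
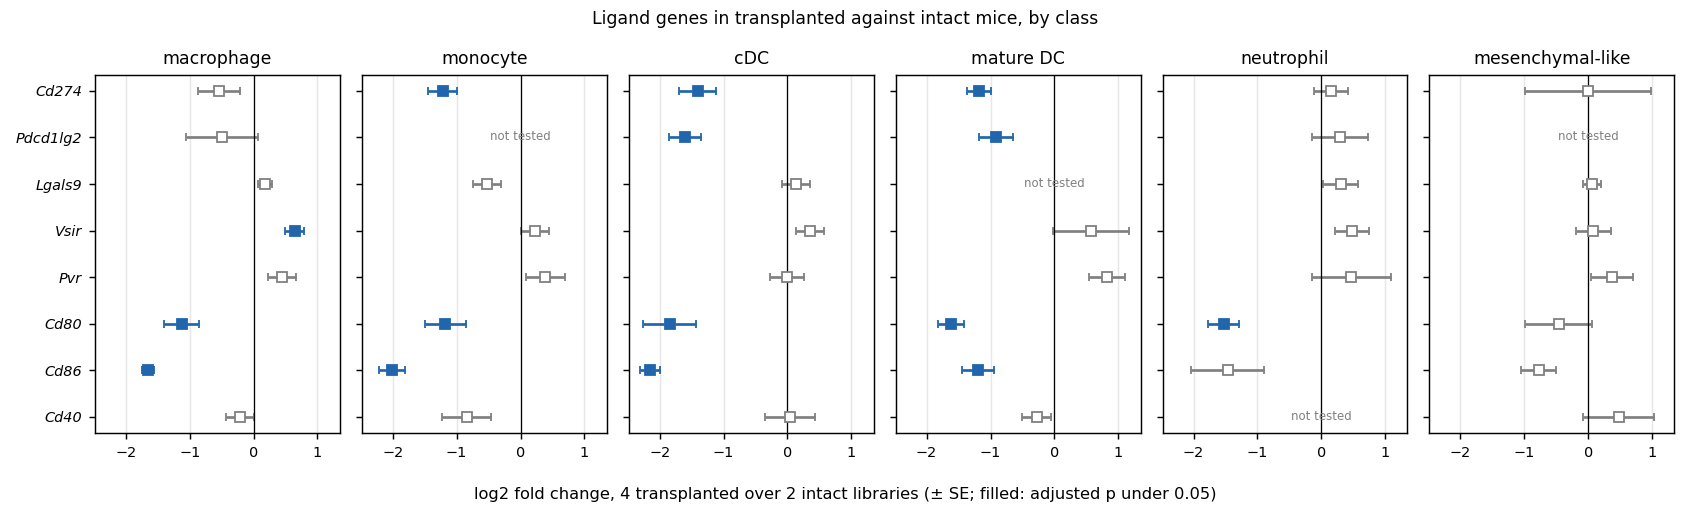
Fitted log2 fold change of the 4 transplanted over the 2 intact libraries, with its SE, for each gene (rows) and class (panels); filled points passed an adjusted p under 0.05. Cd86 and Cd80 lie below 0 in the antigen-presenting classes, and Vsir in macrophages lies above 0.

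Across 42 sums (7 classes in 6 libraries, log2 of CPM + 1), Cd80 went with Cd274 (Pearson r = 0.87) and with Pdcd1lg2 (0.81), Vsir with Lgals9 (0.78), and Cd274 with Pdcd1lg2 (0.77) and not with Lgals9 (0.02). Cd40 went with Cd86 (0.76) and Pvr (0.54), and Pvr was near 0 with Cd274 (0.05) and Cd80 (0.03) and below 0 with Lgals9 (-0.18) and Vsir (-0.16). These describe sums that share libraries and classes, and no test is attached. Among 7727 other genes with a mean of at least 10 CPM, markers left out, the most alike to Cd274 were Sp140 (0.90), Pde4b (0.90) and Icam1 (0.89), to Pdcd1lg2 Nr4a3 (0.85), Stat4 (0.85) and Nabp1 (0.82), to Cd80 Pde4b (0.96), and to Vsir Fcgr3 (0.95). For Cd86 the most alike were Map3k1 (0.92), Dock10 (0.92) and Rap2a (0.91) over all libraries and Cxcl16 (0.97), Cd83 (0.97) and Runx3 (0.96) over the 28 sums of transplanted mice, a different set of 3. Slc31a1 was the most alike to Lgals9 in both (0.91 and 0.92) and Atmin to Cd40 (0.86 and 0.87), while Pvr was nearest to H2-M3 (0.76) over all sums and to Tagln2 (0.91) over transplanted ones.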

How the data were processed

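The authors deposited unnormalised UMI counts by gene and barcode for 6 droplet libraries, made by Cell Ranger 7.0.1 (intact mice) or 6.1.1 (transplanted mice) per the file headers. The submitters' processing notes name mm10 and Seurat; intron counting and strand use are not given in the sources used here. Of 41267 barcodes, 40414 had at least 500 UMIs, at least 200 genes and at most 15% mitochondrial UMIs. Scrublet's automatic cut called 0 to 4 doublets per library, so the top 6% of scores were removed, leaving 38201 cells, a choice made after seeing the data. Libraries shared 8 to 25 barcodes pairwise. Cells were classed by marker gates and counts were summed per library and class. Sums were tested with edgeR 4.0.16 (TMM, filterByExpr, robust quasi-likelihood, R 4.3.3) over all genes, with Benjamini-Hochberg adjustment and a threshold of 0.05. Host and marrow terms were fitted beside transplantation. DESeq2 1.42.0, other filters and classes, and leaving out each library were alternatives. Intervals cover counting error only. Named genes are the 8 members, listed genes that passed (at most 6 per list, class and term by lowest adjusted p) and the 3 most alike genes per member, not all of which are named. The values of 1 listed gene are not reported here. Members, lists and the both-KO term were chosen with earlier results of these data known. The scripts were tested on simulated data with a spread between libraries set in advance. For both KO, log2 changes of 1 were recovered in 39% of genes in macrophages and 11% in mature DC. Changes of 2 were recovered in 100% and 73%. A missing call therefore does not show a lack of change.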

Additional observations from a re-analysis of the deposited data

Results flagged for a closer look

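The effect of host and marrow both KO differed between macrophages and another class, in a test of the difference itself (edgeR), for 9 pairs of gene and class. As class minus macrophage on the log2 scale, Pdcd1lg2 differed by -2.52 in cDC, -3.15 in mature DC and -5.37 in neutrophils, and Cd274 by -1.59 in mature DC, -1.37 in neutrophils and 1.44 in mesenchymal-like cells. Cd80 differed by -1.08 in cDC, Cd40 by -0.92 in mature DC and Lgals9 by 0.64 in mesenchymal-like cells.

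T cells lie outside the classes tested. Their Pdcd1lg2 had 65.3 CPM in intact KO and 65.7 in KO-KO chimeras, against 27.0 in KO-WT chimeras, 40.0 in WT-KO chimeras, 31.8 in intact WT and 41.2 in WT-WT chimeras. The lower of the 2 both-KO libraries lay above each of the others. All members were read in T, NK and B cells without a test, and this gene and class were picked because of that split. The split is therefore a rule of selection and not a result of a test. How many of all T cell genes split in the same way was not counted, so no background stands beside it.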

How the results depend on the processing

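Genotype and transplantation groups could not be paired, because the labels give no replicate numbers and each group has 1 library. Classes were compared within libraries. With host genotype 0 members were called by edgeR, against 2 by DESeq2, 1 with cluster classes, 1 without a filter on low counts, 1 with the transplanted libraries alone and 0 to 2 with 1 library left out. With marrow genotype 0 were called, against 1 by DESeq2 and 0 to 4 with 1 library left out. The 4 came without KO-WT chimeras, which leaves KO marrow only in the 2 both-KO libraries. Leaving out WT-KO chimeras does the same to the host term. With both KO 6 were called, against 15 by DESeq2, 12 without a filter and 5 to 9 with 1 library left out. Leaving out 1 library gave 97 to 102 calls between classes, against 103 with all libraries, and 14 to 17 between DC subsets, against 15. Between transplanted and intact libraries there were 9 to 15 calls with a transplanted library left out, against 15. For the differences from macrophages there were 7 to 10, against 9, with a library other than the both-KO ones left out. These count the calls of each reduced fit, which need not be the same calls. The share over all genes was not kept for any alternative fit, so no background stands beside these counts. Without KO-KO chimeras, 11 of the 13 calls for transplantation were among the 15. Without intact KO, where 1 intact library is left, most of the 15 were lost. Without the library block, 85 calls between classes and 11 between DC subsets were made. With cluster classes, Lgals9 turned direction for monocyte over macrophage (-0.0024, adjusted p = 0.995) and neutrophil over monocyte (0.044, adjusted p = 0.851); the cause was not tested. With cluster classes the macrophage Cd274 ratios moved to 3.41 (intact KO over intact WT), 2.41 and 0.812 (KO over WT host, with KO and with WT marrow) and 1.04 (KO over WT marrow, WT host).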

Other observations

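Members were also read in lymphoid cells, with no test. Cd86 in B cells had 833 CPM in intact KO and 126 in KO-KO chimeras, against 103 in KO-WT chimeras, 86.2 in WT-KO chimeras, 248.9 in intact WT and 85.1 in WT-WT chimeras; the last rests on 5 cells. Cd274 in T cells stood at 73.1 and 38.7 CPM with host and marrow KO, against 29.5 to 53.0 in the other libraries, which overlap.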
